A study of Mus musculus with 4 samples.

Results

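Lysosomal genes were followed in mouse bone marrow-derived macrophages that lacked Cdk5r1, at rest and after lipopolysaccharide (LPS). The set was a list of 42 genes, chosen by name, that encode transcription factors of lysosomal genes, lysosomal membrane proteins, subunits of the proton pump, proteases, glycosidases, lipid-degrading enzymes and acid phosphatases. A probe of the array belonged to the set when its transcript accession matched one of these symbols. This gave 56 probes for 41 of the 42 genes, out of 39429 probes on the array and 23567 genes or accessions tested. The macrophage glycoprotein gene Cd68 was not matched and is not analysed here.

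The cells were grown from bone marrow of male mice, 6 weeks of age, of strain B6.129S4-Cdk5r1tm1Lht/J, over 7 days of culture with GM-CSF at 25 ng/ml. The labels give this strain name for wildtype and knockout animals alike. The basal groups were wildtype and Cdk5r1 knockout macrophages without stimulus, and the LPS groups were the same genotypes after E. coli LPS at 100 ng/ml for 6 h. Each condition had 2 arrays, which the labels call biological replicates without naming the animals, so that p-values measure the spread between these samples. Each array carried wildtype RNA labelled with Cy3 beside knockout RNA labelled with Cy5, and no array had the dyes swapped. A dye effect of a probe and a genotype effect therefore cannot be told apart in a knockout over wildtype ratio. In LPS against basal, each genotype was read in 1 dye throughout.

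Lysosomes are acidic compartments in which hydrolases break down proteins, glycans, lipids and nucleic acids taken up from outside the cell or delivered by autophagy. The vacuolar ATPase (V-ATPase) pumps in the protons, heavily glycosylated membrane proteins line the wall, and most soluble enzymes arrive from the Golgi through the mannose 6-phosphate tag. The transcription factors TFEB, TFE3 and MITF bind a palindromic element around CACGTG in the promoters of many of these genes, known as the CLEAR element. In macrophages the compartment digests engulfed material and prepares antigen. CDK5 is a kinase that needs an activator such as p35, the product of Cdk5r1.

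The CLEAR-type letters were looked up in the members' promoters, because they are what the listed transcription factors are known to read. RefSeq promoters of build GRCm38.p6, each holding 250 bases before and 50 bases after a start, 300 bases in all, were matched by symbol to 36 of the 41 members and gave 46 promoters. The 6 letters CACGTG were present in 12 of these 46 promoters (26.1%) and in 7.15% of all 32851 promoters of the table. The longer form TCACGTGA was present in 6 of 46 (13%) and in 0.974% of all. Both motifs read the same on either strand, and every TCACGTGA contains a CACGTG, so the counts overlap. The 12 genes were Atp6v0d1, Cln3, Ctsa, Ctsd, Ctsl, Gaa, Gla, Glb1, Lamp1, Mcoln1, Naglu and Sgsh. A match describes letters in a window and does not show that a factor binds there.

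The members with a single listed start and at least 2 copies of CACGTG are shown. They gave different calls under LPS. The 250 bases before the start are printed 5′ to 3′ on the gene's strand, with CACGTG in capitals. Ctsd lies at chr7:142387828-142388077 on the minus strand, Mcoln1 at chr8:3500269-3500518 on the plus strand, Lamp1 at chr8:13158911-13159160 on the plus strand, and Gla at chrX:134601006-134601255 on the minus strand, all in GRCm38.p6.
Ctsd: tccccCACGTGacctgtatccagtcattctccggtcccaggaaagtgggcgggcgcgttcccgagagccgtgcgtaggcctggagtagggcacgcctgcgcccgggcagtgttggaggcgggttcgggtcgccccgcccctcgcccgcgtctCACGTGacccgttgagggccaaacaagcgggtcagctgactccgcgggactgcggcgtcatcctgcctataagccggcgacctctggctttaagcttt
Mcoln1: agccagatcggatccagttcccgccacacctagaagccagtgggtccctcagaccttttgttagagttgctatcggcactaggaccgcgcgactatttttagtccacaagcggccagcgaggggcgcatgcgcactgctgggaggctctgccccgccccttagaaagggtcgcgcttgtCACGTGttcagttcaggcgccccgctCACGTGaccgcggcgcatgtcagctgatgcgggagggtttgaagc
Lamp1: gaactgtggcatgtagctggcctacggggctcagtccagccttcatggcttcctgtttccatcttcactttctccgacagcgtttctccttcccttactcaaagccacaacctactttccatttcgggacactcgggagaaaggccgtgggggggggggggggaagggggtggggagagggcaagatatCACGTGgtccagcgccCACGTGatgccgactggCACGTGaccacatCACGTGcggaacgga
Gla: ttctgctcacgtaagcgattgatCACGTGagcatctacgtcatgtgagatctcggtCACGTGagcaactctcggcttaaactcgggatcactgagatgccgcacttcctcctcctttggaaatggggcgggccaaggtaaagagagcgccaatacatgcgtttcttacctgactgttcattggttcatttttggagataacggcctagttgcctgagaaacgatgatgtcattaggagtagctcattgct
Lamp1 held 4 copies, the nearest starting 15 bases before the start. Mcoln1 held copies starting 71 and 45 bases before the start, Ctsd 245 and 98, and Gla 227 and 194.

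All 41 members were well above background in both channels on all 4 arrays, and none had a saturated spot. They were bright genes: the median normalised level of the members was 13.57 (log2, both channels, 4 arrays), against 8.34 for all genes tested. Averaged over the arrays, 41 of 41 lay above that median. After LPS alone, Tfeb had mean levels of 7.60 in wildtype and 7.46 in knockout cells. Before normalisation and on the linear scale, the median foreground over all spots was between 76.0 and 97.5 in Cy3 and between 116 and 145.5 in Cy5. Across genes, which are not independent replicates, the log2 ratios of the basal pair of arrays had r = 0.61 and those of the LPS pair r = 0.78. Between basal and LPS arrays r ran from 0.47 to 0.64, so the basal pair correlated no better than some arrays of different conditions. The targeted gene Cdk5r1 had log2 ratios of knockout over wildtype of -0.37 and -0.59 on the basal arrays and of -2.55 and -2.29 on the LPS arrays. All 8 macrophage markers, among them Adgre1 and Csf1r, were well above background in both channels on every array. In bulk RNA, fewer cells of a type and less RNA per cell cannot be told apart.

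LPS against basal in wildtype cells asked what 6 h of stimulus does to the lysosomal genes. Of 41 members, 26 fell and 2 rose (limma adjusted p under 0.05), while 40.9% of all genes tested passed, 18.2% as higher and 22.7% as lower. The median change of the members was -0.62 (log2), against -0.0003 for all genes tested. In knockout cells 24 members fell and 2 rose, with a median of -0.69 against -0.0072 for all genes, of which 40.9% passed (19.0% higher and 21.9% lower). Between the genotypes, 23 members fell in both, 2 rose in both, 3 passed in wildtype cells alone (Atp6ap1, Ctsl and Ppt1), 1 in knockout cells alone (Lamp1) and 12 in neither. No member passed in opposite directions, and for those that passed in 1 genotype alone the difference between the genotypes did not pass. The wildtype and knockout values come from the same arrays and so are not independent of each other. Scaling each channel to its 75th percentile, in place of loess and quantile scaling, moved the median of all genes to 0.35 in wildtype and 0.37 in knockout cells. The split was then 16 lower and 7 higher in wildtype cells and 16 lower and 8 higher in knockout cells, where 64.5% and 64.0% of all genes passed, and the members' medians were -0.16 and -0.26. Without basal replicate 1 the calls dropped to 12 in wildtype cells (11 lower, 1 higher), where 23.7% of all genes passed, and to 9 in knockout cells (8 lower, 1 higher), where 19.5% passed. Without basal replicate 2 knockout cells had 12 calls (11 lower, 1 higher), where 16.5% of all genes passed.

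**Figure D1:**
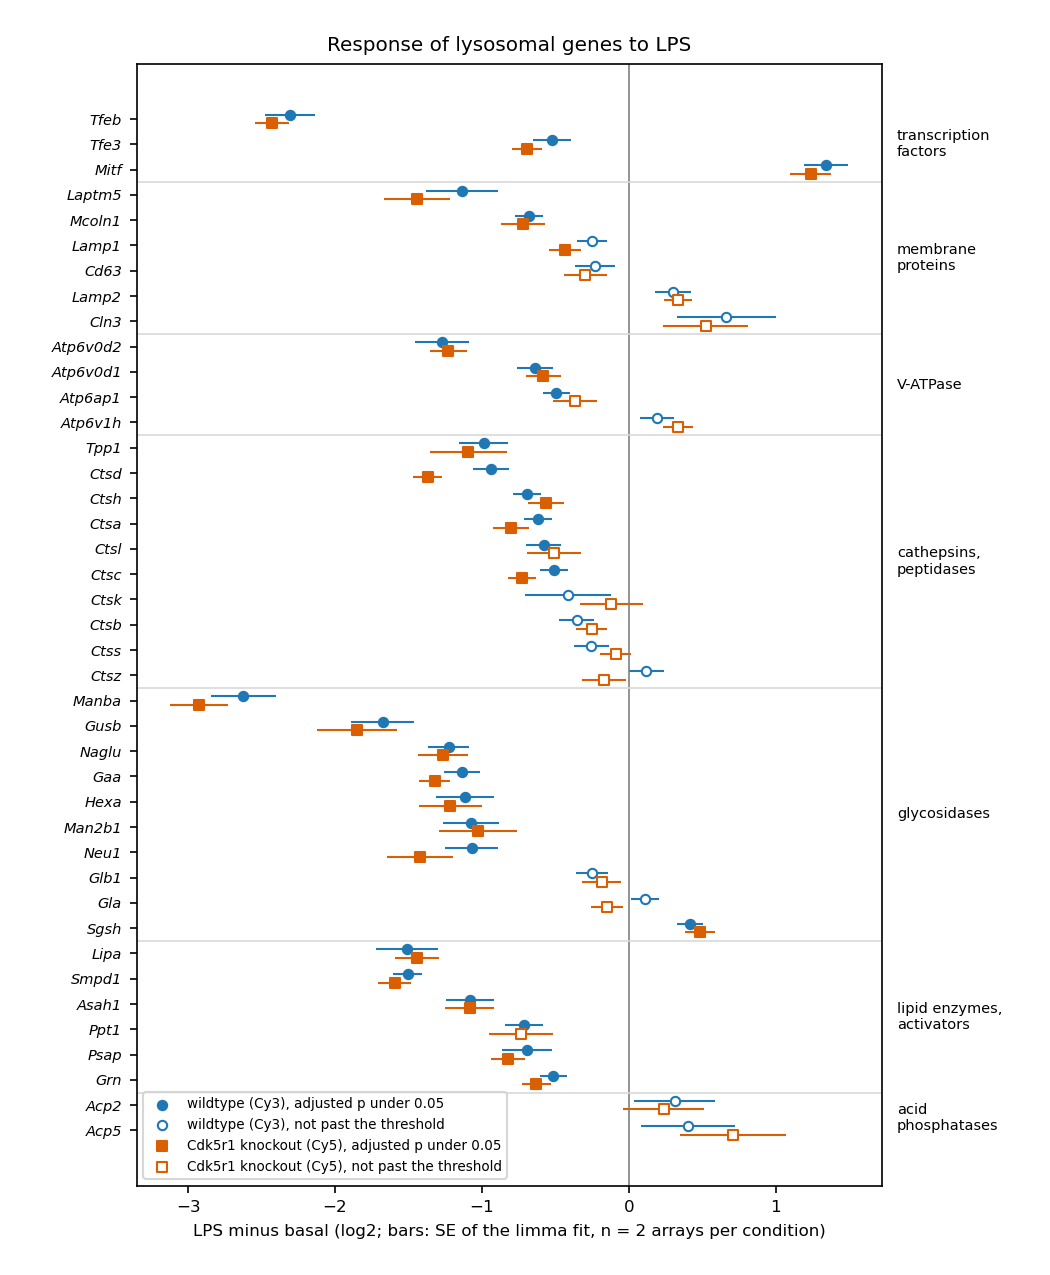
The plot of LPS responses shows the log2 change from basal to LPS on the x axis for the 41 lysosomal genes, grouped by role on the y axis. Blue circles are wildtype cells and orange squares are Cdk5r1 knockout cells, filled where the limma adjusted p was under 0.05, and bars are standard errors with 2 arrays per condition. Manba and Tfeb lie farthest to the left in both genotypes, at -2.63 and -2.30 in wildtype cells, and Mitf lies farthest to the right at 1.34.

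The transcription factors went in different directions. Tfeb, whose product drives lysosome biogenesis, had log2 levels in wildtype cells of 9.95 and 9.86 at rest and of 7.39 and 7.82 after LPS. In knockout cells its levels were 9.96 and 9.82 at rest and 7.38 and 7.54 after LPS. Every LPS value lay at least 2 log2 units below every basal value of the same genotype. Tfeb fell by 2.30 ± 0.17 in wildtype cells (log2, SE, n = 2 arrays per condition, limma adjusted p = 0.0013), or 4.94-fold, and fell by 2.43 ± 0.12 in knockout cells (limma adjusted p = 0.00086). Tfe3, a close relative that answers the same nutrient signals, had wildtype levels of 13.64 and 13.56 at rest and of 12.93 and 13.22 after LPS. It fell by 0.52 ± 0.13 in wildtype cells (limma adjusted p = 0.033) and fell by 0.69 ± 0.10 in knockout cells (limma adjusted p = 0.0087). Mitf, the third factor of the family and known for its part in osteoclasts and pigment cells, had wildtype levels of 12.64 and 12.36 at rest and 13.96 and 13.73 after LPS. It was higher in both LPS samples than in both basal samples, with a rise of 1.34 ± 0.15 (limma adjusted p = 0.0033), and it rose by 1.24 ± 0.14 in knockout cells. With the 75th percentile scaling Tfe3 did not pass in wildtype cells. Other kept probes gave -0.28 for Tfe3 and 1.42 for Mitf in wildtype cells.

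Among the membrane proteins, 2 of 6 fell and 0 rose in wildtype cells, and 3 of 6 fell and 0 rose in knockout cells. Laptm5, a lysosomal membrane protein of blood cells, had wildtype levels of 15.65 and 15.58 at rest and of 14.83 and 14.13 after LPS. It fell by 1.14 ± 0.25 in wildtype cells (limma adjusted p = 0.021) and fell by 1.44 ± 0.22 in knockout cells (limma adjusted p = 0.0097). Mcoln1, the lysosomal calcium channel TRPML1, had wildtype levels of 12.97 and 12.84 at rest and of 12.22 on both LPS arrays. It fell by 0.68 ± 0.10 in wildtype cells and fell by 0.72 ± 0.15 in knockout cells. Lamp1, the abundant glycoprotein of the lysosomal wall, passed in knockout cells only, at -0.43 ± 0.11 (limma adjusted p = 0.033), and its wildtype value was -0.25 ± 0.10 (limma adjusted p = 0.12). The difference between the genotypes was -0.18 ± 0.11 and did not pass (limma adjusted p = 0.63). Lamp2, Cd63 and Cln3 did not pass in either genotype. The values of Lamp2, a partner of Lamp1 needed for autophagosome fusion, were 0.30 and 0.33, and those of the tetraspanin gene Cd63 were -0.23 and -0.30. Cln3, mutated in juvenile Batten disease, had 0.66 ± 0.33 and 0.52 ± 0.29, with LPS arrays that differed from each other in wildtype cells (13.43 and 12.45). Its other probes gave 0.89 and 0.92 in wildtype cells. With the 75th percentile scaling 2 membrane protein genes passed as higher in wildtype cells, Cln3 and Lamp2, and 1 as lower, Mcoln1.

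Of the V-ATPase genes, 3 of 4 fell in wildtype cells and 2 of 4 in knockout cells. Atp6v0d2, a d subunit found mainly in osteoclasts and macrophages, had wildtype levels of 14.27 and 13.80 at rest and of 12.85 and 12.68 after LPS. It fell by 1.27 ± 0.19 in wildtype cells and fell by 1.23 ± 0.12 in knockout cells (limma adjusted p = 0.0069 and 0.0034). The widely expressed d subunit Atp6v0d1 had smaller changes, of -0.64 ± 0.12 and -0.58 ± 0.12. The accessory subunit Atp6ap1 passed in wildtype cells at -0.49 ± 0.09, and its knockout value was -0.37 ± 0.15 (limma adjusted p = 0.12). Atp6v1h, of the part of the pump that splits ATP, had values of 0.19 ± 0.12 and 0.34 ± 0.10 and did not pass. With the 75th percentile scaling 2 of the 4 fell in wildtype cells, and in knockout cells Atp6v0d2 fell and Atp6v1h rose.

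The cathepsins and other peptidases split into genes that fell and genes that did not pass. In wildtype cells 6 of 10 fell and in knockout cells 5 of 10, and none rose. Tpp1, a tripeptidyl peptidase, had wildtype levels of 11.19 and 10.88 at rest and of 10.20 and 9.89 after LPS, a change of -0.99 ± 0.17, and it fell by 1.09 ± 0.26 in knockout cells. Ctsd, the main aspartic protease of the lysosome, had wildtype levels of 16.62 and 16.41 at rest and of 15.65 and 15.50 after LPS. Its knockout levels were 16.14 and 16.10 at rest and 14.74 and 14.75 after LPS. Ctsd fell by 0.94 ± 0.12 in wildtype cells (limma adjusted p = 0.005) and fell by 1.37 ± 0.10 in knockout cells (limma adjusted p = 0.0015). Its other probe had changes of -0.99 and -0.95, so the larger fall in knockout cells was seen with the brighter probe alone. Ctsh, an aminopeptidase, fell in both genotypes (-0.69 ± 0.09 and -0.56 ± 0.12), as did Ctsc, which activates granule proteases (-0.51 ± 0.10 and -0.73 ± 0.10). Ctsa, the protective protein of the sialidase complex, changed by -0.62 ± 0.10 and -0.80 ± 0.12, and its dimmer probe by -1.62 and -1.44. Ctsl, a cysteine protease, passed in wildtype cells at -0.58 ± 0.12 and had -0.51 ± 0.18 in knockout cells (limma adjusted p = 0.089).

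The cysteine proteases Ctsb, Ctss, Ctsk and Ctsz did not pass in either genotype. Ctss, which trims the invariant chain in antigen presentation, was among the brightest members, with wildtype levels of 17.57 and 17.36 at rest and of 17.14 and 17.28 after LPS, a difference of -0.25 ± 0.12. Ctsb had -0.36 ± 0.12 and -0.25 ± 0.11, and Ctsz 0.12 ± 0.12 and -0.17 ± 0.15. Ctsk, the collagen-degrading protease of osteoclasts, had basal wildtype levels of 11.88 and 11.03, which lie far apart, and its difference was -0.41 ± 0.29. Both LPS values of Ctsk, 10.97 and 11.11, lay close to the lower basal value. With the 75th percentile scaling the peptidases had 1 lower and 1 higher in wildtype cells (Tpp1 and Ctsz) and 2 lower and 2 higher in knockout cells (Ctsd and Tpp1, Ctss and Ctsz).

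Glycosidases held some of the strongest falls: 7 of 10 fell and 1 rose in each genotype. Manba, which cleaves mannose from glycoproteins in its beta linkage, had wildtype levels of 12.26 and 12.24 at rest and of 9.93 and 9.31 after LPS. Its knockout levels were 12.30 and 12.21 at rest and 9.58 and 9.07 after LPS. Manba fell by 2.63 ± 0.22 in wildtype cells, or 6.17-fold, and fell by 2.92 ± 0.20 in knockout cells, or 7.59-fold (limma adjusted p = 0.0017 and 0.0014). Gusb, the beta-glucuronidase, changed by -1.68 ± 0.22 and -1.85 ± 0.27, from wildtype levels of 14.43 and 14.56 to 13.12 and 12.53. Naglu, of heparan sulfate breakdown, fell in wildtype and knockout cells (-1.23 ± 0.14 and -1.27 ± 0.17), and so did Hexa, the alpha subunit of the hexosaminidase (-1.12 ± 0.20 and -1.21 ± 0.21). Man2b1, the alpha-mannosidase, changed by -1.08 ± 0.19 and -1.03 ± 0.26, and the sialidase gene Neu1 by -1.07 ± 0.18 and -1.42 ± 0.22. Gaa, which degrades glycogen, changed by -1.14 ± 0.12 and -1.32 ± 0.11, while its much dimmer probe gave -0.07 and -0.10.

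The galactosidase genes did not pass: Glb1 had -0.25 ± 0.11 and -0.18 ± 0.13, and Gla had 0.11 ± 0.10 and -0.15 ± 0.11. The probes of Sgsh, the heparan sulfate sulfamidase, disagreed. The brighter probe had wildtype levels of 15.63 and 15.65 at rest and of 16.05 and 16.06 after LPS, and rose by 0.42 ± 0.09 in wildtype and 0.48 ± 0.10 in knockout cells (limma adjusted p = 0.02 and 0.021). The other probe had wildtype levels of 11.47 and 11.32 at rest and of 7.10 and 7.27 after LPS, a change of -4.21, and its change in knockout cells was -4.35. The direction of Sgsh under LPS is therefore uncertain, and the mean over its probes gave -1.89 and -1.93. The 7 falls among glycosidases in wildtype cells were also 7 with the 75th percentile scaling, and 5 in knockout cells, and Gla then passed as higher in both genotypes.

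All 6 genes for lipid breakdown and sphingolipid activators fell in wildtype cells, and 5 of 6 in knockout cells. Lipa, the lysosomal acid lipase of cholesteryl esters, had wildtype levels of 14.19 and 13.92 at rest and of 12.81 and 12.28 after LPS. It fell by 1.51 ± 0.21 in wildtype cells and fell by 1.44 ± 0.15 in knockout cells (limma adjusted p = 0.0062 and 0.0036). Smpd1, the acid sphingomyelinase, went from 12.05 and 12.11 to 10.52 and 10.63 in wildtype cells and from 11.68 and 11.77 to 10.06 and 10.22 in knockout cells. Its changes were -1.51 ± 0.10 and -1.59 ± 0.11 (limma adjusted p = 0.001 and 0.0016). Asah1, the acid ceramidase, changed by -1.08 ± 0.16 and -1.08 ± 0.17. Psap, the precursor of the saposins, changed by -0.69 ± 0.17 and -0.82 ± 0.12, and Grn, the progranulin gene, by -0.51 ± 0.09 and -0.63 ± 0.10. Ppt1, a palmitoyl thioesterase, passed in wildtype cells at -0.71 ± 0.13 and had -0.73 ± 0.22 in knockout cells (limma adjusted p = 0.054). With the 75th percentile scaling 4 of the 6 fell in each genotype, namely Asah1, Lipa, Ppt1 and Smpd1.

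The acid phosphatase genes did not fall. Acp2, the lysosomal acid phosphatase, had 0.31 ± 0.28 in wildtype cells, and its LPS arrays differed from each other (9.21 and 9.99). Acp5, the tartrate-resistant phosphatase of osteoclasts and macrophages, had wildtype levels of 14.37 and 13.70 at rest and of 14.11 and 14.77 after LPS, which overlap. Its changes of 0.40 ± 0.32 and 0.71 ± 0.36 did not pass. With the 75th percentile scaling Acp5 passed as higher in each genotype. By levels alone, 31 of 41 members (75.6%) were lower in both LPS samples than in both basal samples in wildtype cells, against 38.1% of all genes, and 6 (14.6%) were higher, against 37.0%. In knockout cells the members' counts were also 31 and 6, against 39.1% and 36.9% of all genes.

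**Figure D2:**
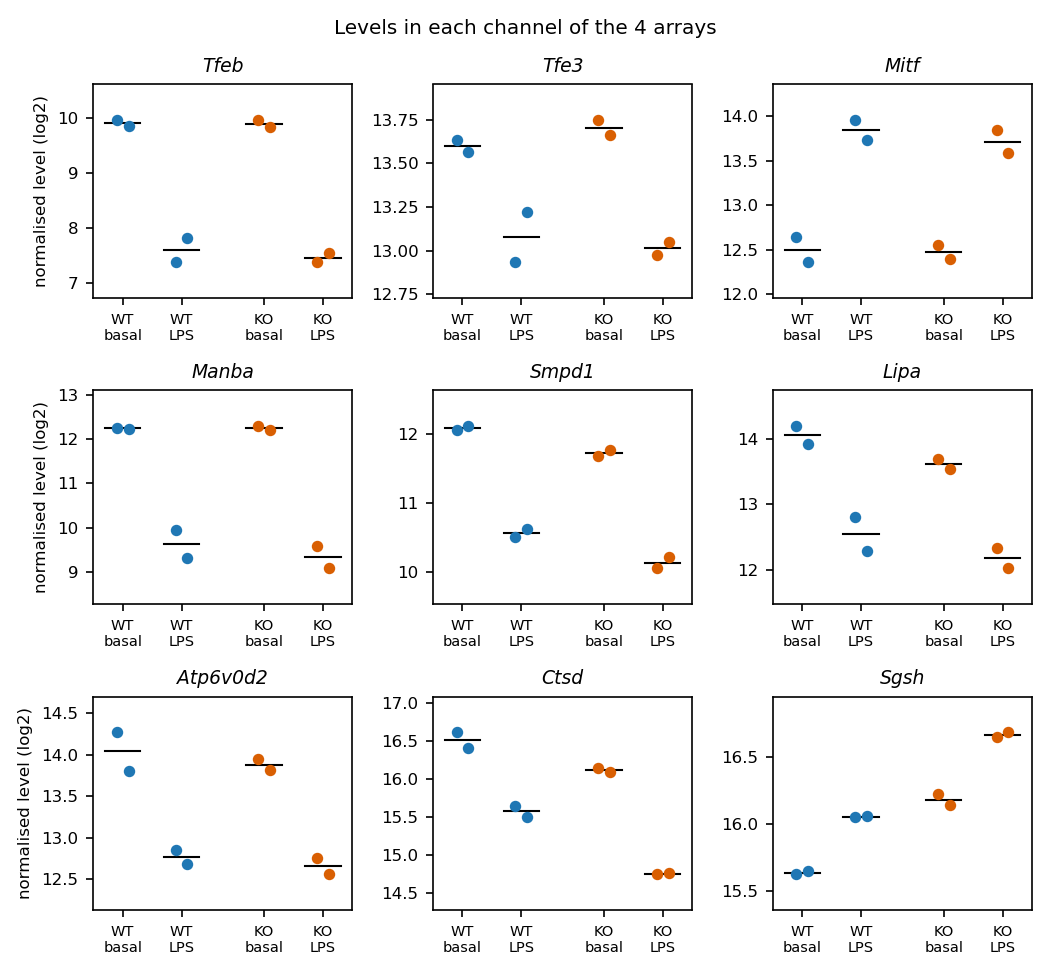
The plot of levels shows normalised log2 levels on the y axis, each panel with its own scale, for 9 members in the wildtype (blue) and Cdk5r1 knockout (orange) channels at rest and after LPS. Each point is a channel of an array, with 2 per group, and lines are means. Tfeb, Manba, Smpd1, Lipa and Atp6v0d2 drop in both genotypes, Mitf rises, and Ctsd and the brighter probe of Sgsh differ between the channels.

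Members with and without the promoter letters had similar medians in wildtype cells. Of the 12 genes with CACGTG, 7 fell and 1 rose in wildtype cells, with a median change of -0.60. Of the 24 matched genes without it, 16 fell and 1 rose, with a median of -0.61. In knockout cells the medians were -0.55 and -0.73. Among the printed promoters, Ctsd and Mcoln1 belonged to genes that fell in both genotypes, Lamp1 to a gene that passed in knockout cells only, and Gla to a gene that did not pass. Manba, with the largest fall, and Tfeb itself had no CACGTG in the window.

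Knockout against wildtype at rest asked what the loss of Cdk5r1 changes in unstimulated cells. The differences were small next to those of LPS: 4 of 41 members were lower and 2 higher in the knockout channel, where 4.87% of all genes passed, 1.5% as lower and 3.37% as higher. The median log2 ratio of the members was -0.06, but it was 0.23, against 0.09 for all genes, when arrays were centred on their median in place of loess, and the split was then 13 higher and 1 lower, where 18.9% of all genes passed. Ctsk had the strongest deficit, with log2 ratios of knockout over wildtype of -0.76 and -0.47 on the basal arrays and a mean of -0.62 ± 0.09 (SE, n = 2, limma adjusted p = 0.011). Lipa had -0.50 and -0.38 (-0.44 ± 0.08, limma adjusted p = 0.031), Ctsd -0.48 and -0.32 (-0.40 ± 0.08, limma adjusted p = 0.042), and Smpd1 -0.36 and -0.34 (-0.35 ± 0.07, limma adjusted p = 0.035). With median centring Ctsk stayed lower and Ctsd changed sign, to 0.12. The higher genes were Sgsh, at 0.60 and 0.49 (0.55 ± 0.07, limma adjusted p = 0.0079; 0.35 by its other probe), and Gla, the alpha-galactosidase, at 0.50 and 0.48 (0.49 ± 0.08, limma adjusted p = 0.017).

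By role, the calls at rest were 2 of 10 peptidases lower, 2 of 6 lipid genes lower and 2 of 10 glycosidases higher, and no transcription factor, membrane protein, V-ATPase or acid phosphatase gene passed. The ratios of Tfeb, Tfe3 and Mitf were -0.02 ± 0.08, 0.10 ± 0.08 and -0.02 ± 0.07. Acp5, at -0.48 ± 0.11, missed the threshold (limma adjusted p = 0.059), as did Mcoln1 at -0.35 ± 0.09 and Lamp1 at 0.34 ± 0.08. None of the 6 calls stood on every alternative. With the scanner's processed signals 0 members passed, where 3.26% of all genes did. The authors' deposited value table also gave 0, where 3.27% of all genes passed. The calls were not kept without basal replicate 1 either, where the members' median ratio was -0.06.

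Under LPS the same comparison gave more calls, 9 members lower and 1 higher, where 12.4% of all genes passed (5.23% lower and 7.17% higher). The median ratio was -0.07, but 0.14 with median centring, against 0.07 for all genes, when 13 members passed as higher and 2 as lower and 23.3% of all genes passed. Ctsd had the largest difference, with ratios of -0.91 and -0.75 on the LPS arrays and a mean of -0.83 ± 0.08 (limma adjusted p = 0.002), or 1.77-fold. Its dimmer probe gave -0.32, which is close to its basal value of -0.36. Smpd1 had -0.46 and -0.42 (-0.44 ± 0.07, limma adjusted p = 0.0098). Ctsd and Smpd1 were the 2 that passed as lower with median centring. Laptm5 had -0.54 and -0.45 (-0.50 ± 0.07, limma adjusted p = 0.0066), and Mcoln1 -0.52 and -0.27 (-0.39 ± 0.09, limma adjusted p = 0.032).

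The other lower members under LPS were Neu1 (-0.45 ± 0.07, limma adjusted p = 0.011), Ctsc (-0.41 ± 0.07), Lipa (-0.37 ± 0.08), Manba (-0.29 ± 0.07) and Grn (-0.28 ± 0.07). Neu1 had ratios of -0.50 and -0.39 on the LPS arrays and of -0.06 and -0.14 on the basal arrays. Manba had -0.35 and -0.24 after LPS and 0.04 and -0.03 at rest. The difference of the knockout effect between LPS and rest did not pass for either gene (limma adjusted p = 0.28 and 0.36). Sgsh was the 1 higher member, at 0.60 and 0.62 (0.61 ± 0.07, limma adjusted p = 0.0033; 0.21 by its other probe). By role, 2 of 6 membrane protein genes, 2 of 10 peptidases, 2 of 10 glycosidases and 3 of 6 lipid genes were lower. Tfeb, Tfe3 and Mitf had -0.14 ± 0.08, -0.06 ± 0.08 and -0.13 ± 0.07, and none passed. The number of calls was 2 with the processed signals, where 7.31% of all genes passed, and 2 with the authors' deposited value table, where 7.38% passed. Few or none of the calls under LPS were kept without LPS replicate 1 or without LPS replicate 2, which leaves a single LPS array. The members' median ratios were then -0.12 and -0.08.

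**Figure D3:**
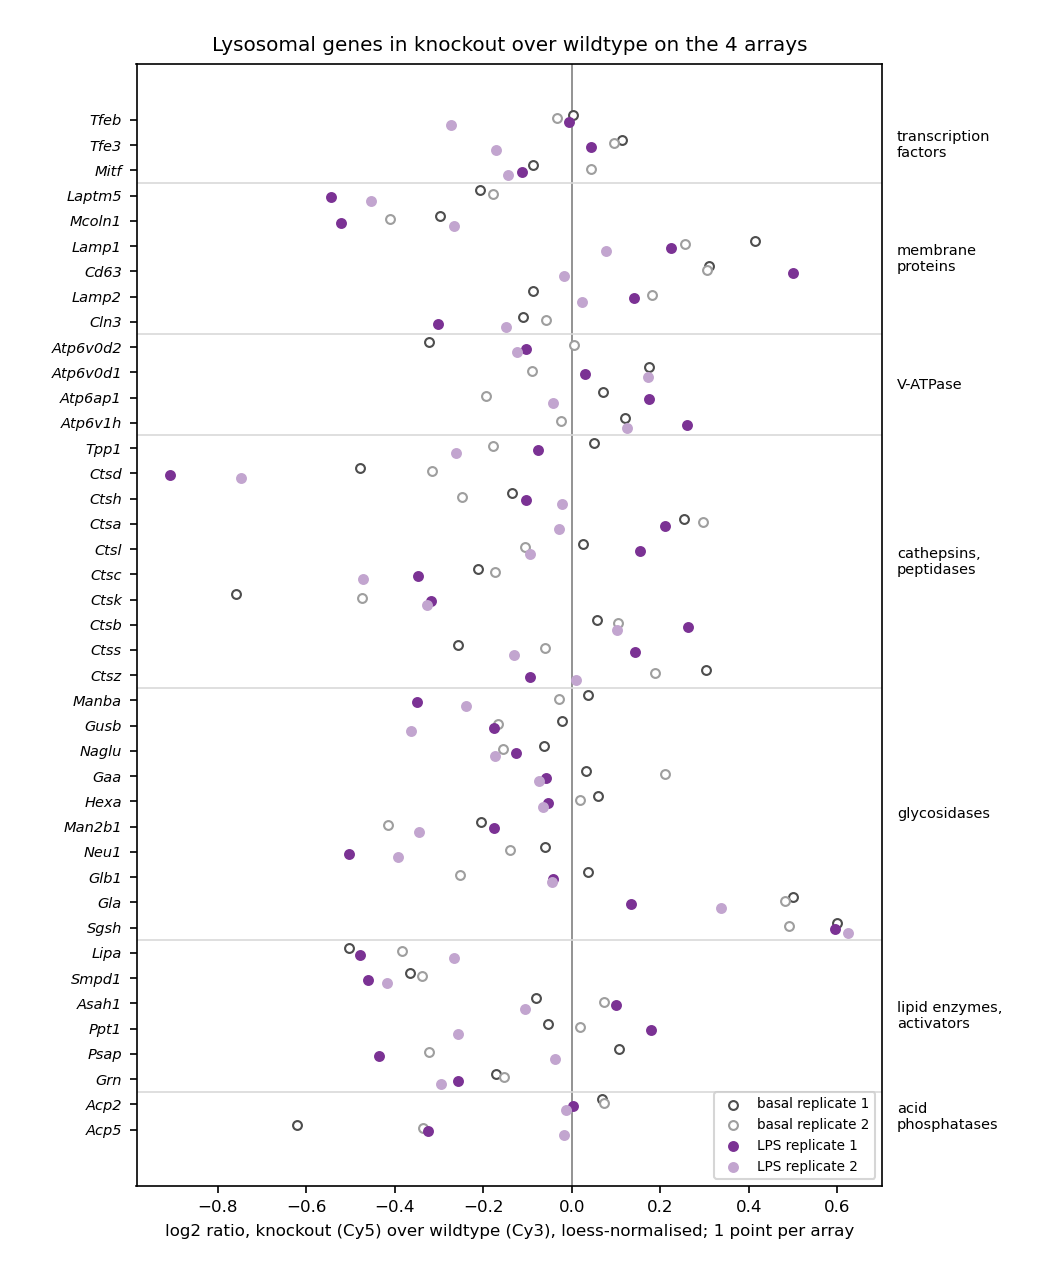
The plot of knockout over wildtype ratios shows the loess-normalised log2 ratio of each of the 4 arrays on the x axis for the 41 lysosomal genes by role. Open circles are basal arrays and filled circles are LPS arrays. Ctsd, Ctsk, Lipa and Smpd1 lie left of 0 on all 4 arrays and Sgsh and Gla lie right of it, while most other members scatter around 0.

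Averaged over the conditions, 11 members were lower and 3 higher in the knockout channel, where 18.2% of all genes passed (8.22% lower and 9.95% higher), and with median centring 2 were lower and 19 higher, where 37.9% of all genes passed. Ctsd (-0.61 ± 0.06), Ctsk (-0.47 ± 0.06), Lipa (-0.41 ± 0.06), Smpd1 (-0.40 ± 0.05) and Mcoln1 (-0.37 ± 0.06) led the lower genes, with limma adjusted p from 0.00095 for Ctsd to 0.0092 for Mcoln1. They were followed by Laptm5 (-0.35), Acp5 (-0.32), Ctsc (-0.30), Man2b1 (-0.28), Neu1 (-0.27) and Grn (-0.22). Sgsh (0.58 ± 0.05), Gla (0.36 ± 0.05) and Lamp1 (0.24 ± 0.06) were higher. The ratio lay below 0 on all 4 arrays for 15 members (36.6%), against 18.7% of all genes, and above 0 on all 4 for 4 members (9.76%), namely Ctsb, Gla, Lamp1 and Sgsh, against 20.3%. Of the 14 calls, those of Ctsk, Smpd1 and Sgsh were kept under each of the 12 alternatives run. The calls of Acp5, Ctsc, Grn, Laptm5, Man2b1 and Neu1 changed sign with median centring, and Grn then passed as higher, at 0.20 (limma adjusted p = 0.042). Fewer members passed without LPS replicate 1 or without LPS replicate 2, with median ratios of -0.11 and -0.07.

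The change in the knockout effect from basal to LPS cells asked whether the LPS response of these genes depends on Cdk5r1, and in it a constant dye effect cancels. No member passed in limma, 6 had an unadjusted p under 0.05, and 0.403% of all genes passed. The 6 were Ctsd, Ctsz, Ctsk, Neu1, Manba and Laptm5, and the lowest adjusted p in limma was 0.24. The largest values were -0.43 ± 0.11 for Ctsd (0.04 by its other probe), -0.35 ± 0.10 for Neu1 and 0.31 ± 0.15 for Acp5. The count was 0 under every alternative run as well. Standard errors of the members ran from 0.093 to 0.187, so a difference of the size seen for Ctsd did not pass with 4 arrays.

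Markers of other cell types moved with the genotype. Of all genes, 1.5% were lower and 3.37% higher in the knockout channel at rest, and 5.23% and 7.17% under LPS. With median centring 18.9% passed at rest and 23.3% under LPS. Of 9 neutrophil markers, 6 were lower in the knockout channel at rest and 6 under LPS. Camp had -1.75 ± 0.11 at rest and Ltf -1.88 ± 0.11 under LPS. Mpo (-0.19 at rest and 0.39 under LPS) and Elane (-0.16 and -0.19) did not pass. Ly6g had no kept probe, and Retnlg was not well above background in the knockout channel. The log2 of the neutrophil markers' summed level was 16.65 and 17.33 in basal wildtype cells and 15.53 and 16.24 in basal knockout cells. After LPS it was 18.14 and 18.32 in wildtype cells and 16.70 and 16.74 in knockout cells. The osteoclast fusion genes Ocstamp and Dcstamp were lower in the knockout channel under LPS, at -0.75 ± 0.09 and -0.93 ± 0.09, and their changes with LPS in wildtype cells were -1.73 ± 0.25 and -1.55 ± 0.25. The summed osteoclast level ran from 15.24 to 15.53 at rest and from 14.29 to 14.53 after LPS in wildtype cells, and from 14.85 to 15.27 and from 14.05 to 14.07 in knockout cells. Of the osteoclast list, 2 of 8 kept genes were lower and 0 higher in the knockout channel under LPS. With median centring 2 were lower and 1 higher. Averaged over the conditions 2 were lower and 1 higher, namely Car2 (0.31 ± 0.07). With LPS in wildtype cells 4 of the list fell and 3 rose, namely Car2 (2.03 ± 0.18), Tnfrsf11a (0.85 ± 0.16) and Calcr (0.72 ± 0.11). The summed macrophage level ran from 17.40 to 17.45 at rest and from 16.55 to 16.78 after LPS in wildtype cells, and from 17.43 to 17.80 and from 16.23 to 16.84 in knockout cells. Of the other lists, 2 of 8 dendritic cell markers were higher and 1 lower under LPS, 2 of 8 markers of alveolar-type macrophages were lower, and of 6 eosinophil, mast cell and basophil markers 2 were lower and 2 higher in each condition. No marker of T, NK or B cells passed, while 1 of 7 stromal markers was lower at rest, and 2 were lower and 1 higher under LPS. With median centring 4 of 8 macrophage markers were higher and 0 lower under LPS, against 2 and 2 here, and of the 9 neutrophil markers 7 were lower at rest, and 6 lower and 1 higher under LPS. The part of these cell types in the differences of the lysosomal genes was not tested.

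Other genes of the lysosome, outside the 42, were given by lists. Of all genes tested, 22.7% fell and 18.2% rose with LPS in wildtype cells, and 21.9% fell and 19% rose in knockout cells. With the 75th percentile scaling 64.5% and 64% of all genes passed. Of 35 other soluble enzymes and activators, 19 fell and 1 rose with LPS in wildtype cells, with Pla2g15, a lysosomal phospholipase, at -2.51 ± 0.34, Naaa, an acid amidase, at -2.14 ± 0.32 and Siae, a sialic acid esterase, at -1.47 ± 0.18. The ribonuclease gene Rnaset2a rose by 1.24 ± 0.09. In knockout cells 16 fell and 2 rose, and with the 75th percentile scaling 14 fell and 3 rose in wildtype cells. Of 25 other membrane proteins, 11 fell and 3 rose in wildtype cells, with Cln8 at -2.29 ± 0.29, the cystine exporter gene Ctns at -2.27 ± 0.16 and the channel gene Tpcn1 at -2.21 ± 0.33. The chloride transporter gene Clcn7 (1.02 ± 0.17), Slc15a3 (0.99 ± 0.12) and Scarb2, the receptor that carries glucocerebrosidase (0.59 ± 0.09), rose. In knockout cells 13 fell and 4 rose, and the scaling gave 11 falls and 5 rises in wildtype cells. Of 16 other V-ATPase subunits, 6 fell and 2 rose in each genotype, with Atp6v1c1 and Atp6v0a1 both at -0.70, Atp6v0a2 at -0.66, Atp6v1d at 0.89 and Atp6v1e1 at 0.45 in wildtype cells. With the 75th percentile scaling 5 of these subunits were higher and 2 lower in each genotype. The median of all genes was then 0.35 in wildtype and 0.37 in knockout cells.

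Of all genes, 40.9% passed with LPS in each genotype, and 64.5% and 64% with the 75th percentile scaling. Sorting genes went both ways. Of 17, 9 fell and 4 rose with LPS in wildtype cells and 7 fell and 4 rose in knockout cells, and 6 fell and 4 rose in each with the 75th percentile scaling. The adaptor genes Ap1b1 (-2.34 ± 0.18) and Gga2 (-1.43 ± 0.21) and the sulfatase modifier gene Sumf2 (-1.34 ± 0.09) fell, while M6pr, the mannose 6-phosphate receptor (1.08 ± 0.09), and the adaptor genes Ap3b1 (0.80 ± 0.16) and Ap1g1 (0.78 ± 0.12) rose. Among 20 genes of the machinery that holds or releases TFEB at the lysosome surface, 9 fell and 1 rose in wildtype cells and 10 fell and 1 rose in knockout cells, and the scaling gave 8 falls and 2 rises in wildtype cells. They included Fnip2 (-2.11 ± 0.22) and its partner Flcn (-1.86 ± 0.10), the amino acid sensor gene Slc38a9 (-1.92 ± 0.23) and, as the 1 rise, the kinase gene Mtor (1.06 ± 0.20). Of 11 endogenous cathepsin inhibitors 6 rose and 1 fell in wildtype cells. In knockout cells 5 rose and 0 fell, and the 75th percentile scaling gave 8 rises in wildtype cells and 9 in knockout cells, with no fall in either. Cst7, cystatin F, rose by 4.10 ± 0.27, and the stefin genes Stfa2 and Stfa3 by 1.68 ± 0.15 and 1.67 ± 0.14, while Cst6 fell by 0.47 ± 0.09. The stefin A genes are near-identical copies, so their probes may share signal.

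In knockout against wildtype fewer genes of these lists passed, and with median centring more passed as higher than as lower in each list, in either condition taken alone, except the inhibitors at rest. Of all genes, 4.87% passed at rest and 12.4% under LPS, and 18.9% and 23.3% with median centring. At rest Stfa1 (-0.71 ± 0.10) and Serpinb1a (-0.56 ± 0.11) were lower. Under LPS 4 of 11 inhibitor genes were lower and 0 higher, with Csta2 at -3.90 ± 0.16, Stfa2l1 and Stfa2 both at -0.72 and Stfa1 at -0.56. Of the other soluble enzymes 6 of 35 were lower and 2 higher under LPS, led by Pla2g15 (-0.61 ± 0.07), Prcp (-0.54 ± 0.10) and Naaa (-0.42 ± 0.10), with Lgmn (0.42 ± 0.08) and Rnaset2a (0.32 ± 0.07) higher. Of the other membrane proteins 3 of 25 were lower and 1 higher under LPS, with Cd164 (-0.54 ± 0.10), Ostm1 (-0.38 ± 0.07) and Scarb2 (-0.27 ± 0.07) lower and Laptm4b (0.30 ± 0.07) higher. Gga2 was lower at -0.43 ± 0.08 under LPS, the 1 sorting gene that passed in either condition taken alone, and Fnip2 was the 1 TFEB regulator that did so, at 0.36 ± 0.07 at rest and 0.27 ± 0.07 under LPS (limma adjusted p = 0.04998). No V-ATPase subunit outside the members passed in either condition.

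**Figure D4:**
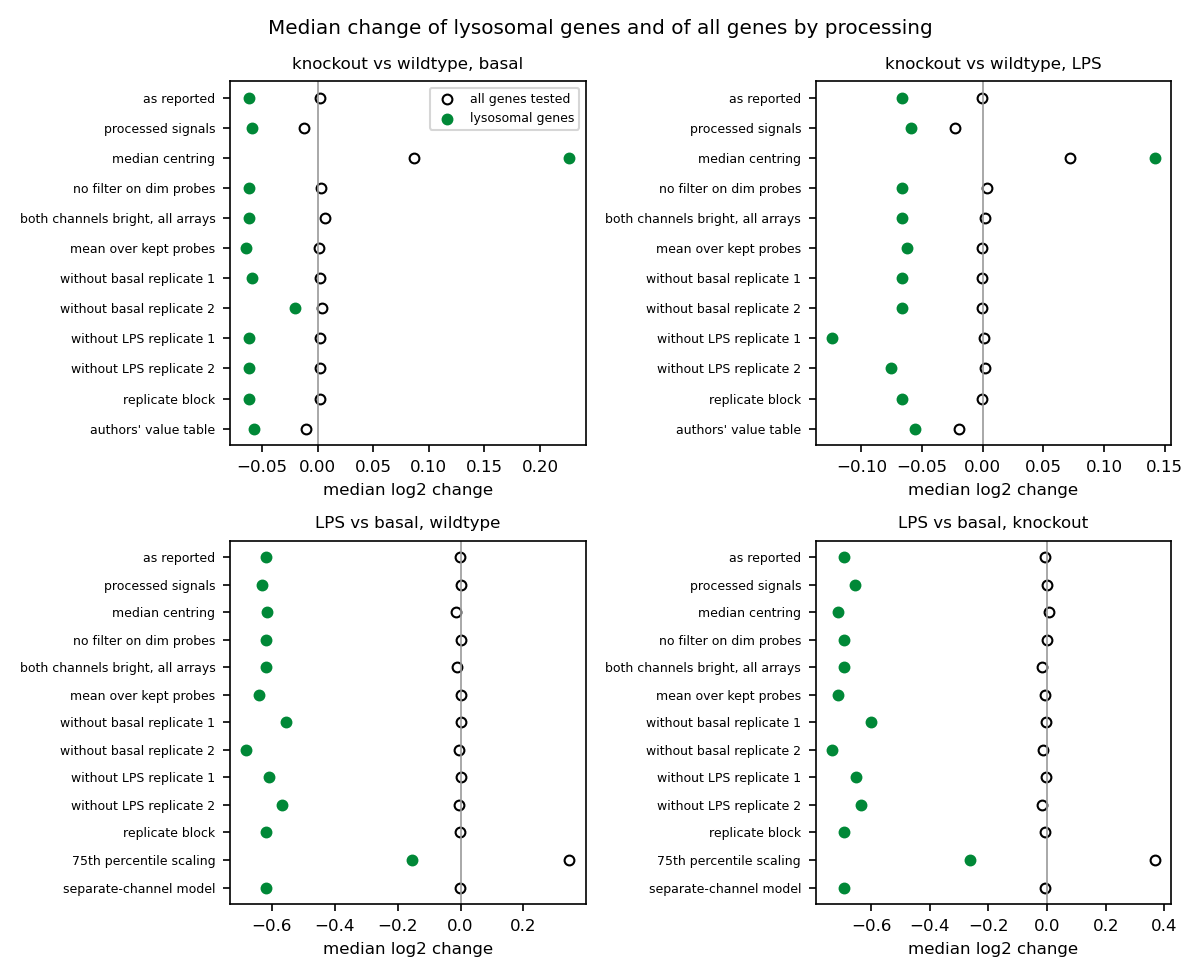
The plot of medians by processing shows the median log2 change on the x axis for each processing on the y axis, in 4 comparisons. Green points are the 41 lysosomal genes. Open points are all 23567 genes tested, or another number where a filter changed. In LPS against basal the lysosomal median lies left of that of all genes for each processing, also where scaling to the 75th percentile moves both to the right. In knockout against wildtype it lies left of 0 for each processing except median centring, where it is 0.23 at rest and 0.14 under LPS.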

How the data were processed

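The authors deposited 1 scanner file per array, with the median foreground and median local background intensity of each spot in both channels, and a value table of log2 ratios. The scanner software was Agilent Feature Extraction, 11.5.1.1 in the file headers and 9.3.2.1 in the submitters' processing notes. The deposited log2 table equals the knockout over wildtype ratio of the scanner's processed signals plus a constant per array, between -0.002 and 0.0051 (100% of probes compared, tolerance 0.001). Its column medians were 0.016, 0.034, 0.029 and 0.031, and no source used here says how the constant was set.

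Intensities were background-corrected in limma 3.58.1 (R 4.3.3) with normexp (offset 50) and normalised by loess per array, where control spots and spots with outlier flags had weight 0. Spots of a probe were averaged, 63 probes with no unflagged spot on an array were dropped, and levels were quantile-scaled across arrays on the mean intensity (Aquantile). Kept probes had at least 1 channel well above background on at least 2 of 4 arrays (28632 of 39429). Accessions were matched without version to RefSeq symbols (GRCm38.p6, 27508 probes with a symbol), and each gene was read from its brightest kept probe. This left 23567 genes or accessions to test, and 15983 had a symbol. The array headers name another build, so no array coordinates are given.

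The 6 comparisons were fitted with lmFit and eBayes, ratios in 1 fit over all 4 arrays and levels in 1 fit per channel, with two-sided p-values adjusted by Benjamini-Hochberg over the 23567 genes. Calls were made at an adjusted p under 0.05. Every adjusted p comes from limma, errors are standard errors of that fit, and the number of arrays limits the precision. The 4 arrays shared 1 slide and scan, which left no batch to fit. The fits were tested on simulated data. The replicate numbers were checked for pairing: deviations of same-numbered samples correlated at -0.16 for ratios, and -0.19 and -0.08 for wildtype and knockout levels.

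The members, their roles, the other gene lists and the marker lists were chosen with earlier results of these data known. All members could be named, with other probes given where they differed in direction or by over 0.5, and up to 3 called genes per direction of each other list. Alternatives were processed signals, median centring, other filters, the mean over probes, leaving out each array, the replicate block and the authors' table. Others were a separate-channel model and 75th percentile scaling of each channel, the latter without loess or Aquantile.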

Additional observations from a re-analysis of the deposited data

How the results depend on the processing

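The number of members called in knockout against wildtype at rest was 6, and it was 0 with the processed signals, 0 with the authors' deposited value table, 14 with median centring (13 higher, 1 lower) and 0 to 3 when 1 array was left out. Under LPS the number of members called was 10 (12.4% of all genes). It was 2 with the processed signals (7.31%) and 2 with the authors' deposited value table (7.38%). Few or none of the calls were kept when an LPS array was left out, and fewer members passed without a basal array. Median ratios then ran from -0.12 to -0.07. Averaged over both it was 14, and 5 with the processed signals, 5 with the authors' deposited value table and 8 to 11 with 1 array left out. In LPS against basal it was 28 in wildtype and 26 in knockout cells, and 12 to 27 and 9 to 27 with 1 array left out. The lowest counts came without basal replicate 1 (12 and 9, where 23.7% and 19.5% of all genes passed), and knockout cells had 12 without basal replicate 2 (16.5%). The replicate block gave 5, 7 and 13 calls in the knockout comparisons, where 3.93%, 9.17% and 13.5% of all genes passed. It gave 25 and 24 in the LPS comparisons of wildtype and knockout (34.1% and 33.9%), and 0 in the difference (0.246%). Crossing the replicate numbers, an alternative chosen after seeing the data, gave 9, 11 and 17 calls (7.82%, 18.6% and 24.9%). In the LPS comparisons the crossing gave 29 and 26 (42.5% and 40.1%), and in the difference 0 (1.56%).

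Single-gene values under the alternatives covered all members in the LPS comparisons. In the knockout comparisons they covered the called members and the transcription factors. For the difference they covered the transcription factors and the members with the largest values. Of these 1606 values, 1311 kept their direction and their side of the threshold, 223 lost the threshold, 29 gained it and 43 changed sign. The cause was not tested. With median centring the basal ratios of Ctsd, Mitf and Tfeb were 0.12, 0.21 and 0.14, the LPS ratios of Grn, Mitf and Tfe3 were 0.14, 0.20 and 0.20, and the averages of Acp5, Ctsc, Grn, Laptm5, Man2b1, Mitf, Neu1 and Tfeb were 0.0213, 0.0536, 0.20, 0.0684, 0.12, 0.21, 0.0081 and 0.027. With 75th percentile scaling the LPS changes in wildtype cells were 0.27 for Cd63, 0.15 for Ctsb, 0.0055 for Ctsc, 0.25 for Ctss, 0.0597 for Grn and 0.28 for Lamp1. In knockout cells they were 0.25 for Cd63, 0.30 for Ctsb, 0.0438 for Ctsl, 0.48 for Ctss, 0.40 for Ctsz, 0.44 for Gla and 0.14 for Lamp1. The mean over probes gave -1.89 and -1.93 for Sgsh. In the authors' deposited value table Mitf and Tfeb had basal ratios of 0.001 and 0.0056 and Tfe3 an LPS ratio of 0.0017, and the processed signals gave 0.004 for Tfeb at rest. Across the fits that left out 1 array, the basal ratio ran from -0.0871 to 0.0426 for Mitf and from -0.0338 to 0.002 for Tfeb. The LPS ratio of Tfe3 ran from -0.1706 to 0.0447, its average from -0.0328 to 0.0748, and the difference of Tfeb from -0.2577 to 0.0104. LPS changes in wildtype cells ran from -0.0773 to 0.701 for Acp2 and from -0.8372 to 0.0099 for Ctsk. In knockout cells they ran from -0.1447 to 0.617 for Acp2, from -0.3997 to 0.1623 for Ctsk and from -0.3391 to 0.0036 for Ctsz. All 41 members were well above background on all 4 arrays.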
